A study of Phaseolus vulgaris with 18 samples.

Results

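Grain of the common bean, Phaseolus vulgaris 4004, was compared at 15 DAF with grain at 10 DAF, the interval in which seeds begin to fill. The abbreviation is read here as days after flowering, which the labels do not spell out. The series holds grain and pod of the same bean at 10, 15 and 20 DAF with 3 RNA sequencing libraries in each of 6 groups, and the comparison rests on the 3 grain libraries of 15 DAF and the 3 of 10 DAF. A gene was taken in when it had at least 1 TPM (a transcript abundance corrected for gene length and scaled within a library) in at least 3 of these 6 libraries. That gave 17297 of the 27420 genes in the deposited table, of which 2432 carry no description. The grain is the whole labelled tissue, so embryo, endosperm and seed coat were measured together, and fewer cells of a type and less RNA per cell cannot be told apart. Whether the 3 libraries of a stage were made from different plants is not in the labels. Every p-value here therefore speaks of the variation among libraries, part of which could be technical.

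A bean seed first grows by cell division and then fills. The cotyledon cells stop dividing, enlarge, and load their vacuoles with reserve proteins, mainly globulins of the cupin family and lectins that are made on the endoplasmic reticulum, beside starch in plastids. Filling draws sucrose and amino acids from the mother plant across the seed coat, and late in it the seed prepares for drying with abscisic acid signals, late embryogenesis abundant (LEA) proteins and sugars of the raffinose family. In legumes the young seed is green and its plastids hold photosynthetic complexes.

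Libraries of 15 DAF correlated with each other at r = 0.943 to 0.978 across genes and those of 10 DAF at r = 0.956 to 0.968 on the log2(TPM + 1) scale, while r between the stages ran from 0.796 to 0.912, highest for replicate 3 of 10 DAF. The deposited TPM of a library summed to 997237, 902544 and 823001 at 15 DAF and 978908, 987542 and 963584 at 10 DAF, and since TPM keeps no read depth, the depth is unknown. Of the embryo markers, both genes described as NF-YB6, an embryo regulator, had 286 to 452 TPM at 15 DAF and 450 to 731 TPM at 10 DAF. They had at most 0.433 TPM on average in pods of the same 2 stages. Other embryo regulators were near zero in the 6 libraries, with at most 2.34 TPM for LEC1, 2.49 for WOX8, 0.103 for WOX2 and 2.18 for PLT2 genes. The genes described as AIL6 had 9.88 to 65.8 TPM. The anthocyanidin reductase BAN (Phvul.002G218700), a seed coat enzyme, was present in all 6 libraries. Of the endosperm markers, 8 genes described as AGL62 had at most 1.45 TPM in any of the 6 libraries and the 3 described as ZHOUPI at most 4.59 TPM, while the 2 FIE genes, which are not limited to endosperm, had 7.89 to 31.1 TPM at 15 DAF and 21.9 to 87.1 TPM at 10 DAF. The fruit wall regulators differed, since each of 3 FUL copies had at most 0.559 TPM in grain, against 84.2 TPM for the highest copy in 15 DAF pods, whereas the 3 SHP genes had 21.0 to 106.6 TPM in 15 DAF grain and 34.2 to 79.7 TPM in 10 DAF grain. In pods the SHP genes averaged 89.9 to 158 TPM at 15 DAF and 51.7 to 74.8 TPM at 10 DAF.

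A few genes took up a much larger share of the transcripts at 15 DAF. At 15 DAF the 10 most abundant genes of each library held 41.8%, 34.2% and 35.4% of its TPM, against 6.55%, 5.90% and 5.86% at 10 DAF. The most abundant 16, 43 and 51 genes made up the first 50% of the TPM at 15 DAF, against 550, 480 and 571 genes at 10 DAF. The number of genes with at least 1 TPM was 15344, 15774 and 15437 at 15 DAF, below the 17906, 17135 and 17679 genes at 10 DAF. Replicate 1 of 15 DAF was the most concentrated of the 6 libraries, and no library of one stage fell in the range of the other on any of these measures.

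**Figure D1:**
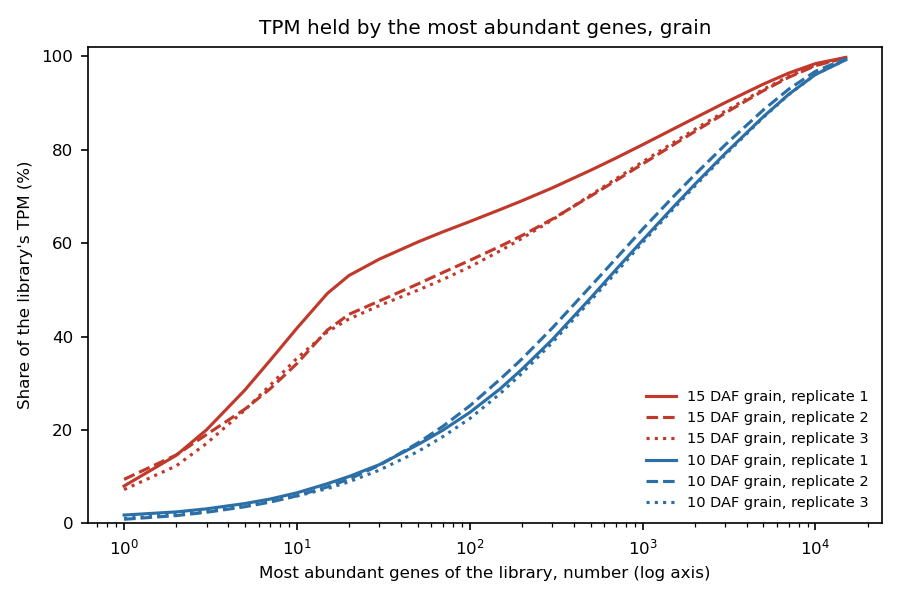
Share of a library's TPM (y axis, percent) held by its most abundant genes, taken from the most abundant down (x axis, number of genes on a log scale), 1 line per grain library, 15 DAF in red and 10 DAF in blue. At 10 genes the 15 DAF lines stand between 34.2% and 41.8% and the 10 DAF lines between 5.86% and 6.55%.

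TPM are shares of a library, so a larger share for a few genes lowers the values of all others by construction. Counts of called genes and most differences are given both as deposited and after median-ratio scaling. TPM values, library shares and sums of lists or markers are as deposited unless scaling is named. For this scaling the median was taken, in each library, of the ratios of 11276 genes to their geometric means, the genes being those above 1 TPM in all 18 libraries. A shift shared by most genes is thereby largely taken out. The median log2 difference over the genes tested was -0.85 as deposited and -0.11 after scaling. A gene counts as called where the p of the limma fit, after Benjamini-Hochberg adjustment, is below 0.05 and the log2 difference is 1 or more either way. Differences are 15 DAF minus 10 DAF on log2(TPM + 1), followed after ± by the standard error of the fit. As deposited, 382 genes (2.21%) were called higher and 6878 (39.8%) lower at 15 DAF. After scaling, 1104 (6.38%) were called higher and 2040 (11.8%) lower. These shares of all genes are the background for each count of called list members below. The same 382 genes were higher on both scales, and all 2040 genes called lower after scaling were also lower as deposited. No gene was called in opposite directions, 4838 genes were lower only as deposited and 722 were higher only after scaling.

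Of the genes tested, 14152 reached 1 TPM in all 6 libraries, and 240 of these were called higher and 5436 lower as deposited. A further 81 genes reached it in no 10 DAF library and 1123 in no 15 DAF library, and these passed the filter through 1 stage alone, so their differences are partly set by it. The genes called higher held 58.2%, 48.3% and 48.0% of the TPM at 15 DAF, against 0.622%, 1.84% and 3.87% at 10 DAF. All of the 10 most abundant genes at 15 DAF and 33 of the 50 most abundant were among them. Of the 50 most abundant genes at 10 DAF 37 were called lower, and 14 genes stood in both lists of 50. With 3 libraries a stage the smallest p of an exact permutation test is 0.1, so single sums are given with their values and no test. For 648 genes (3.75%) every 15 DAF library stood above every 10 DAF library as deposited, and for 12343 (71.4%) every one stood below. After scaling these were 3651 (21.1%) and 5701 (33%), the background for each gene described below as without overlap.

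**Figure D2:**
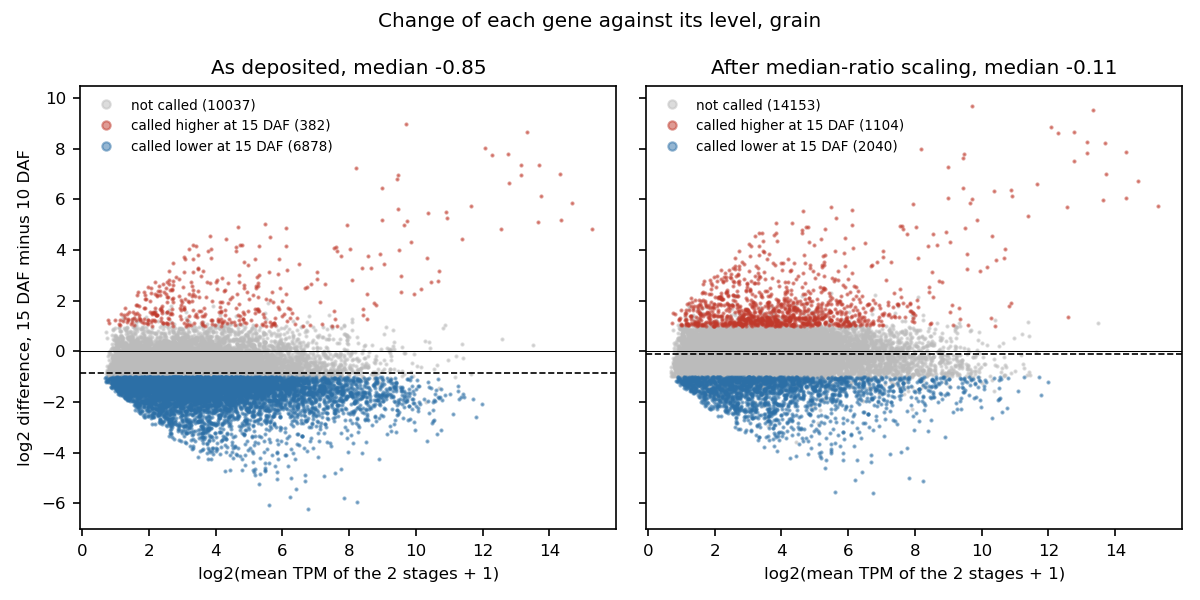
Log2 difference of each gene tested (y axis, 15 DAF minus 10 DAF, on log2(TPM + 1)) against its level (x axis, log2 of the mean TPM of both stages plus 1), as deposited on the left and after median-ratio scaling on the right. Red and blue points are genes called higher and lower at 15 DAF, and the dashed line is the median of all genes, -0.85 on the left and -0.11 on the right.

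Among the most abundant transcripts at 15 DAF were those of genes with consecutive identifiers and lectin-type descriptions. Of these 4 genes 3 are described as Concanavalin A-like lectin protein kinases and 1, Phvul.004G158100, as the lectin receptor kinase LECRKA4.3, and such a description is carried over from the best match in Arabidopsis. The lectins of bean seeds belong to the same domain family, and the deposited text does not say whether these genes hold a kinase domain. Phvul.004G158200 had 79783, 85051 and 59604 TPM at 15 DAF, against 568, 3509.9 and 8509 TPM at 10 DAF. All 3 libraries of 15 DAF stood higher, with replicate 1 low at 10 DAF (log2 difference 4.85 ± 0.77, adjusted p = 7.38e-05, and 5.73 after scaling, adjusted p = 0.000278). It was the most abundant gene at 15 DAF and was already among the 10 most abundant at 10 DAF. Phvul.004G158300 stood at 65355, 47005 and 39682 TPM at 15 DAF, against 186, 1073 and 3081 TPM at 10 DAF. Phvul.004G158100 stood at 46054, 39691 and 32425 TPM at 15 DAF, against 219.7, 1308 and 4334 TPM at 10 DAF. The least abundant of the 4, Phvul.004G158000, had the largest difference of them (log2 difference 7.75 ± 0.97, adjusted p = 5.53e-06, and 8.60 after scaling, adjusted p = 2.01e-05). Together the 4 held 20.2%, 20.2% and 17.1% of the TPM at 15 DAF, against 0.09997%, 0.5998% and 1.70% at 10 DAF.

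All 8 cupin genes tested, members of the storage globulin family, were called higher on both scales, beside 2.21% of all genes as deposited. Their median log2 difference was 7.16 as deposited and 8.04 after scaling, and their sum was 133780.0, 101396 and 82544 TPM at 15 DAF, against 157, 1209 and 2274 TPM at 10 DAF. Of the 8, 6 are described as PAP85 and have neighbouring identifiers. Phvul.007G059775 had 36683, 24398 and 16890.1 TPM at 15 DAF, against 29.2, 278 and 398 TPM at 10 DAF. Every 15 DAF library exceeded those of 10 DAF, with replicate 1 low at 10 DAF (log2 difference 7.37 ± 0.76, adjusted p = 5.24e-07, and 8.24 after scaling, adjusted p = 9.72e-06). Phvul.007G059750 had the largest difference of the list, with 11719, 7758 and 6099 TPM at 15 DAF, against 3.91, 62.8 and 100.4 TPM at 10 DAF. No overlap was left and 15 DAF was higher, with replicate 1 low at 10 DAF (log2 difference 8.02 ± 0.70, adjusted p = 6.31e-08, and 8.87 after scaling, adjusted p = 1.23e-06). The smallest of the 6, Phvul.007G059800, still had 1884, 1303 and 922 TPM at 15 DAF, against 2.03, 16.3 and 30.1 TPM at 10 DAF. Similar copies such as these can share reads, and how the authors assigned such reads is not given in the sources used here, so the split between neighbouring copies is uncertain.

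Genes without a description were a large part of the same block. Of the 10 most abundant genes at 15 DAF 4 carry none, 3 of them with consecutive identifiers. The highest of these, Phvul.004G134000, had 54669.7, 24635 and 41605 TPM at 15 DAF, against 85.7, 246 and 1233 TPM at 10 DAF. Each 15 DAF value lay above all of 10 DAF, with replicate 3 high at 10 DAF (log2 difference 7.01 ± 0.73, adjusted p = 6.04e-07, and 7.89 after scaling, adjusted p = 1.27e-05). The 3 neighbours together held 12.1%, 6.25% and 10.3% of the TPM at 15 DAF, against 0.0184%, 0.0634% and 0.318% at 10 DAF. The other undescribed gene of the 10, Phvul.011G205500, had 25494, 21877 and 26510.5 TPM at 15 DAF, against 257, 829.6 and 1731 TPM at 10 DAF. Its lowest 15 DAF library exceeded its highest at 10 DAF, with replicate 1 low at 10 DAF (log2 difference 5.09 ± 0.65, adjusted p = 6.93e-06, and 5.98 after scaling, adjusted p = 4.12e-05). Over all undescribed genes tested, 58 of 2432 (2.38%) were called higher and 1025 (42.1%) lower as deposited, close to the 2.21% and 39.8% of all genes.

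The genes called higher were not at one level among the 10 DAF libraries. Replicate 3 had the highest of the 3 values for 273 of the 382 genes called higher, and replicate 1 the lowest for 238. At 15 DAF replicate 1 was highest for 263 of the 382 genes, and it was lowest for 1532 of the 2040 genes called lower on both scales. Leaving out replicate 3 of 10 DAF gave 417 genes higher as deposited and leaving out replicate 1 of 10 DAF gave 309.

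Protease inhibitors, which protect seed protein and serve as sulphur-rich reserves in legumes, were split. Of 17 inhibitor genes tested, 6 were called higher and 5 lower as deposited, and 9 and 3 after scaling, with median log2 differences of 0.23 and 1.10. The shares of all genes were 2.21% higher and 39.8% lower as deposited, and 6.38% and 11.8% after scaling. The potato inhibitor I-type gene Phvul.005G032000 had 822, 434 and 482 TPM at 15 DAF, against 0.677, 3.43 and 5.48 TPM at 10 DAF. Thus 15 DAF was higher in every library (log2 difference 7.26 ± 0.46, adjusted p = 1.75e-09, and 8.004 after scaling, adjusted p = 6.15e-08). The phytocystatin CYS2 (Phvul.001G264400), an inhibitor of cysteine proteases, had 1363, 1066 and 1198 TPM at 15 DAF, against 77.4, 368 and 447 TPM at 10 DAF. Levels at 15 DAF were higher in each library, with replicate 1 low at 10 DAF (log2 difference 2.36 ± 0.47, adjusted p = 0.000552, and 3.24 after scaling, adjusted p = 0.000281). Among the lower ones, the Kunitz-type gene Phvul.004G130500 had 1.54, 6.22 and 10.5 TPM at 15 DAF, against 78.0, 57.0 and 45.8 TPM at 10 DAF. The 15 DAF libraries all stood lower, with replicate 1 low at 15 DAF (log2 difference -3.33 ± 0.36, adjusted p = 9.57e-07, and -2.55 after scaling, adjusted p = 0.000169). The count of 9 higher after scaling was 5 without replicate 1 of 15 DAF.

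LEA proteins, which shield cell contents during drying, were mostly higher at 15 DAF, beside 2.21% of all genes as deposited and 6.38% after scaling. Of 24 LEA and dehydrin genes tested, 14 were called higher and 1 lower as deposited, and 16 and 0 after scaling, with median log2 differences of 1.64 and 2.47. The list summed to 5534, 2751 and 2623 TPM at 15 DAF, against 679.5, 978 and 1008 TPM at 10 DAF. Replicate 1 of 15 DAF stood well above the other libraries of its stage, and without it the count of higher genes as deposited was 9 in place of 14. LEA4-5 (Phvul.001G142000) shows this spread, with 1169, 149.6 and 117 TPM at 15 DAF, against 3.10, 13.1 and 10.2 TPM at 10 DAF. Values of the 2 stages stood apart with 15 DAF higher, with replicate 1 high at 15 DAF and replicate 1 low at 10 DAF (log2 difference 4.99 ± 0.71, adjusted p = 2.23e-05, and 5.81 after scaling, adjusted p = 0.000116). A second abundant member, Phvul.007G225200, had 1245, 934 and 689.9 TPM at 15 DAF, against 36.3, 111 and 143 TPM at 10 DAF. All 3 libraries of 15 DAF stood higher, with replicate 1 low at 10 DAF (log2 difference 3.46 ± 0.41, adjusted p = 2.95e-06, and 4.34 after scaling, adjusted p = 7.7e-06). The 1 member called lower as deposited was LEA14 (Phvul.008G057900), with 21.3, 17.3 and 14.2 TPM at 15 DAF, against 62.9, 57.4 and 57.1 TPM at 10 DAF.

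Regulators of maturation were called in both directions, with lower counts near the shares of all genes, 39.8% as deposited and 11.8% after scaling. The counts called higher were of few genes, beside 2.21% and 6.38% of all genes. Of 15 maturation regulators tested, 2 were called higher and 6 lower as deposited, and 4 and 2 after scaling, with median log2 differences of -0.63 and 0.12. ABI5, a bZIP factor of abscisic acid signalling in seeds, has several copies here. Phvul.001G189400 had 209, 156 and 164 TPM at 15 DAF, against 12.001, 41.2 and 48.1 TPM at 10 DAF. Every 15 DAF library exceeded those of 10 DAF, with replicate 1 low at 10 DAF (log2 difference 2.55 ± 0.40, adjusted p = 5.68e-05, and 3.41 after scaling, adjusted p = 1.27e-05). The more abundant copy Phvul.005G124200 had 725, 628 and 542 TPM at 15 DAF, against 205, 534 and 547 TPM at 10 DAF and was called only after scaling. The stages overlapped, with replicate 1 low at 10 DAF (log2 difference 0.68 ± 0.38, adjusted p = 0.132, and 1.56 after scaling, adjusted p = 0.00927). The call after scaling was lost without replicate 1 of 10 DAF (adjusted p = 0.0542). WRINKLED1 (Phvul.011G187400), an activator of fatty acid synthesis genes in Arabidopsis, fell, with 1.72, 2.81 and 3.05 TPM at 15 DAF, against 12.8, 20.5 and 14.7 TPM at 10 DAF. Grain of 15 DAF was lower without overlap (log2 difference -2.26 ± 0.31, adjusted p = 1.5e-05, and -1.54 after scaling, adjusted p = 0.00246). NF-YB6 (Phvul.003G087000) was 295 ± 9.46 TPM at 15 DAF and 619 ± 149 TPM at 10 DAF (SD, n = 3), called lower as deposited (log2 difference -1.04 ± 0.40, adjusted p = 0.0356) but not after scaling, and that call was lost in 5 of the 6 fits that left out 1 library.

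Among 46 genes of abscisic acid synthesis and signalling tested, 5 were called higher and 9 lower as deposited, and 12 and 1 after scaling, with median log2 differences of -0.57 and 0.14. Over all genes 2.21% were higher and 39.8% lower as deposited, and 6.38% and 11.8% after scaling. The largest rise was in a PP2C phosphatase described as HAI3 (Phvul.002G163900), a class that restrains abscisic acid signalling, with 64.5, 46.2 and 37.2 TPM at 15 DAF, against 0.619, 2.21 and 2.74 TPM at 10 DAF. No overlap was left and 15 DAF was higher (log2 difference 4.19 ± 0.46, adjusted p = 1.05e-06, and 4.90 after scaling, adjusted p = 1.82e-06). Its more abundant namesake Phvul.001G236000 overlapped between the stages, with 1864, 1356 and 1252 TPM at 15 DAF, against 781, 1452 and 1336 TPM at 10 DAF. ABA4 (Phvul.007G143200), which acts in making the neoxanthin precursor of the hormone, fell, with 0.612, 0.406 and 1.34 TPM at 15 DAF, against 5.18, 7.43 and 3.45 TPM at 10 DAF. Between the stages there was no overlap (log2 difference -1.82 ± 0.31, adjusted p = 0.000129, and -1.27 after scaling, adjusted p = 0.00414).

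**Figure D3:**
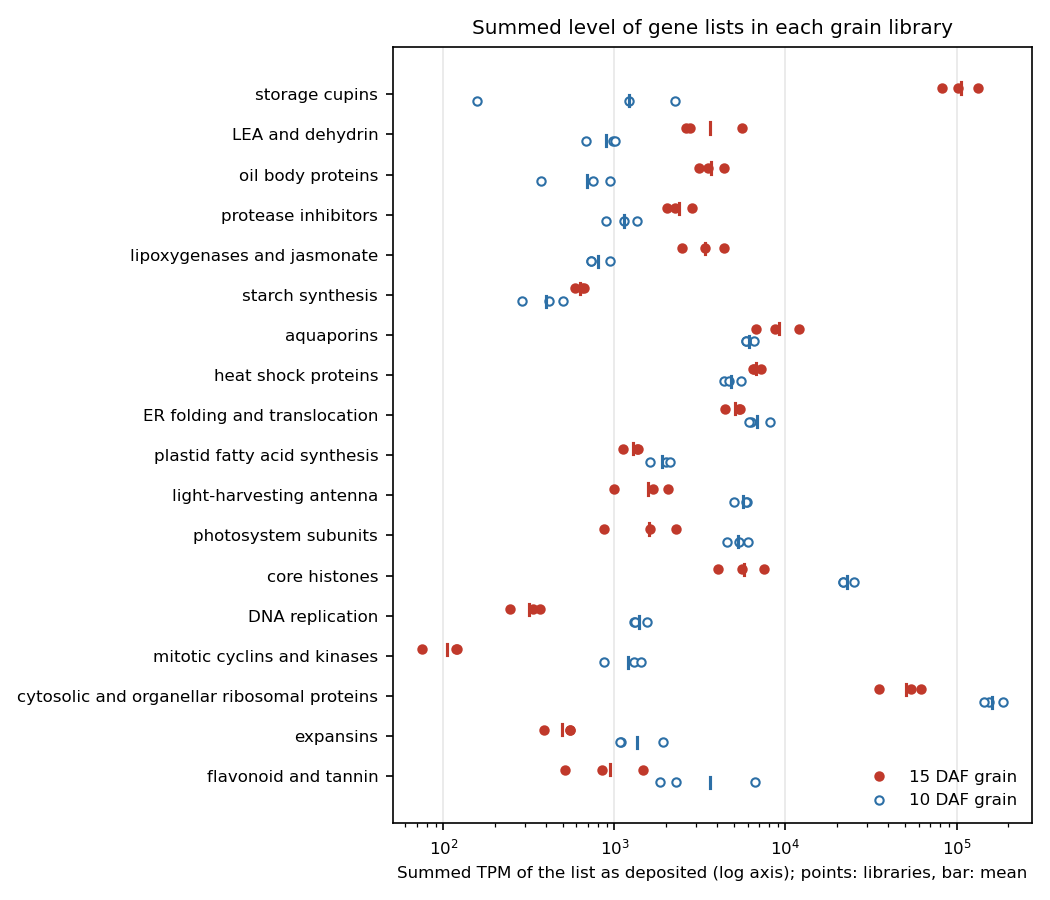
Summed TPM as deposited (x axis, log scale) of all members of 18 gene lists (rows), tested or not, in each grain library. Filled red points for 15 DAF stand above open blue points for 10 DAF, with a bar at the mean of 3 libraries. Cupins stand at 82544 to 133780 TPM at 15 DAF against 157 to 2274 TPM at 10 DAF, while core histones and ribosomal proteins lie lower at 15 DAF in every library.

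Among the oil body genes 4 of 10 were called higher on both scales, beside 2.21% of all genes as deposited and 6.38% after scaling. Of 10 oil body genes tested, 4 were called higher and 2 lower as deposited, and 4 and 0 after scaling, with median log2 differences of -0.25 and 0.49. OLE1 (Phvul.007G138300), an oleosin that coats oil bodies, had 1853, 1282 and 1672 TPM at 15 DAF, against 179, 432 and 444 TPM at 10 DAF. Each 15 DAF value lay above all of 10 DAF (log2 difference 2.28 ± 0.47, adjusted p = 0.000688, and 3.16 after scaling, adjusted p = 0.000462). Oleosin Phvul.009G103600 had 808, 606 and 696 TPM at 15 DAF, against 21.8, 74.2 and 204 TPM at 10 DAF. Its lowest 15 DAF library exceeded its highest at 10 DAF, with replicate 3 high at 10 DAF (log2 difference 3.31 ± 0.50, adjusted p = 4.39e-05, and 4.18 after scaling, adjusted p = 4.08e-05). Of 22 genes of plastid fatty acid synthesis tested, 0 were called higher and 15 lower as deposited, and 0 and 6 after scaling, with median log2 differences of -1.33 and -0.48. Of all genes 39.8% were lower as deposited and 11.8% after scaling. The fatty acid list summed to 1124, 1371 and 1360 TPM at 15 DAF, against 1616, 1991 and 2118 TPM at 10 DAF. After scaling the sum was higher at 15 DAF without overlap, at 1641, 1805 and 1999 against 1213, 1601 and 1581. The stearoyl desaturase-type gene Phvul.001G064100 had 547, 722 and 762 TPM at 15 DAF, against 394, 623 and 764 TPM at 10 DAF. It passed on neither scale (log2 difference 0.23, and 1.11 after scaling). The acyl carrier protein gene described as ACP4 at Phvul.003G100400 fell (log2 difference -2.72 ± 0.44, adjusted p = 8.96e-05, and -2.22 after scaling, adjusted p = 0.00193), whereas the far more abundant ACP4 copy Phvul.006G096600 had 273, 288 and 245 TPM at 15 DAF, against 296, 318 and 365 TPM at 10 DAF and passed on neither scale. Of 16 genes of triacylglycerol assembly tested, 0 were called higher and 5 lower as deposited, and 1 and 2 after scaling, with median log2 differences of -0.70 and -0.02.

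Starch synthesis genes were called higher mainly after scaling, where 6.38% of all genes were, against 2.21% as deposited. Of 15 starch synthesis genes tested, 2 were called higher and 2 lower as deposited, and 9 and 0 after scaling, with median log2 differences of 0.51 and 1.37. Their sum was 646, 661 and 589 TPM at 15 DAF, against 287, 413 and 502 TPM at 10 DAF, without overlap. ISA3 (Phvul.009G033200), a debranching enzyme, had 63.8, 68.0 and 72.0 TPM at 15 DAF, against 22.6, 30.02 and 44.8 TPM at 10 DAF. Thus 15 DAF was higher in every library (log2 difference 1.09 ± 0.41, adjusted p = 0.0311, and 1.96 after scaling, adjusted p = 0.000354), and its call as deposited was lost in 5 of the 6 fits that left out 1 library. APL3 (Phvul.009G023100), the large subunit of the enzyme that makes ADP-glucose, had 168, 144 and 118 TPM at 15 DAF, against 34.3, 85.1 and 82.7 TPM at 10 DAF and was called only after scaling. Levels at 15 DAF were higher in each library (log2 difference 1.17 ± 0.52, adjusted p = 0.064, and 2.04 after scaling, adjusted p = 0.00367). Starch synthase SS2 (Phvul.004G029100) did likewise, with 94.0, 111 and 119 TPM at 15 DAF, against 28.3, 49.6 and 72.1 TPM at 10 DAF. Values of the 2 stages stood apart with 15 DAF higher (log2 difference 1.19 ± 0.51, adjusted p = 0.0542, and 2.05 after scaling, adjusted p = 0.00185). SS3 (Phvul.006G149680) was lower at 15 DAF as deposited (log2 difference -1.05 ± 0.42, adjusted p = 0.0438), a call lost in all 6 fits that left out 1 library.

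Sucrose enters the filling seed through carriers and is split by sucrose synthase or invertase. Of 9 sucrose synthase and invertase genes tested, 1 was called higher and 3 lower as deposited, and 2 and 1 after scaling, with median log2 differences of -0.64 and 0.05. The dominant sucrose synthase SUS4 (Phvul.003G127500) had 1261, 1727 and 1213 TPM at 15 DAF, against 888, 1231 and 1841 TPM at 10 DAF. Its stages overlapped, and its call after scaling (log2 difference 1.01 after scaling, adjusted p = 0.0295) was lost in 4 of the 6 fits that left out 1 library. SUS2 (Phvul.009G250800) was near zero at 10 DAF, with 20.3, 16.4 and 12.3 TPM at 15 DAF, against 0, 0 and 0.0510 TPM at 10 DAF (log2 difference 4.06, and 4.54 after scaling). It passed the filter through 15 DAF alone, so its call is set in part by the filter. The cell wall invertase CWINV2 (Phvul.007G227200) fell, with 0.830, 5.10 and 3.40 TPM at 15 DAF, against 25.0, 9.36 and 20.0 TPM at 10 DAF. None of the 15 DAF values reached those of 10 DAF (log2 difference -2.28 ± 0.35, adjusted p = 4.45e-05, and -1.57 after scaling, adjusted p = 0.00375). Of 20 sugar carriers tested, 2 were called higher and 6 lower as deposited, and 3 and 3 after scaling, with median log2 differences of -0.36 and 0.33. Beside both lists stand 2.21% of all genes higher and 39.8% lower as deposited, and 6.38% and 11.8% after scaling. A sucrose-proton symporter described as SUC2 (Phvul.007G088200) had 106, 133 and 92.5 TPM at 15 DAF, against 52.0, 64.0 and 40.7 TPM at 10 DAF. All 3 libraries of 15 DAF stood higher (log2 difference 1.07 ± 0.39, adjusted p = 0.0273, and 1.94 after scaling, adjusted p = 0.000963), though with the call as deposited lost in 4 of the 6 fits that left out 1 library. SAG29 (Phvul.006G210800), known in Arabidopsis as the sucrose efflux carrier SWEET15, was the most abundant carrier and passed on neither scale, with 778, 593 and 364 TPM at 15 DAF, against 718, 436.05 and 754 TPM at 10 DAF.

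Galactinol synthase GolS1 (Phvul.001G215300), the entry step to raffinose family sugars, had 113, 102.5 and 40.0 TPM at 15 DAF, against 0.101, 2.52 and 2.50 TPM at 10 DAF. Every 15 DAF library exceeded those of 10 DAF, with replicate 3 low at 15 DAF (log2 difference 5.04 ± 0.84, adjusted p = 0.000109, and 5.71 after scaling, adjusted p = 8.64e-05). Of 7 genes of this family tested, 2 were called higher and 4 lower as deposited, and 2 and 2 after scaling, with median log2 differences of -1.54 and -0.83. In all genes 2.21% were higher and 39.8% lower as deposited, and 6.38% and 11.8% after scaling. The raffinose synthase-family gene DIN10 (Phvul.003G168800) was lower at 15 DAF as deposited, with 3.32, 4.61 and 2.19 TPM at 15 DAF, against 14.3, 11.3 and 13.0 TPM at 10 DAF, and not called after scaling (log2 difference -1.70 ± 0.40, adjusted p = 0.0018, and -0.96 after scaling, adjusted p = 0.0549).

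Fewer of the nitrogen supply genes were called lower than of all genes, beside 39.8% as deposited and 11.8% after scaling. More of them were called higher, beside 2.21% and 6.38%, though these were few genes. Of 37 amino acid carriers tested, 3 were called higher and 7 lower as deposited, and 6 and 0 after scaling, with median log2 differences of -0.50 and 0.20. The permease AAP3 (Phvul.009G128600) had 87.8, 34.1 and 32.7 TPM at 15 DAF, against 2.23, 0.883 and 1.85 TPM at 10 DAF. No overlap was left and 15 DAF was higher, with replicate 1 high at 15 DAF (log2 difference 4.19 ± 0.53, adjusted p = 6.06e-06, and 4.90 after scaling, adjusted p = 1.34e-05). AAP6 (Phvul.001G077000) had 8.15, 5.74 and 1.18 TPM at 15 DAF, against 27.2, 6.07 and 16.9 TPM at 10 DAF, lower as deposited and uncalled after scaling, and the call was lost in 3 of the 6 fits that left out 1 library. Of 22 nitrogen assimilation genes tested, 1 was called higher and 6 lower as deposited, and 2 and 2 after scaling, with median log2 differences of -0.59 and 0.21. The glutamine synthetase GLN1;1 (Phvul.008G237500) had 403, 209.6 and 201 TPM at 15 DAF, against 74.6, 128 and 121 TPM at 10 DAF. Each 15 DAF value lay above all of 10 DAF (log2 difference 1.28 ± 0.38, adjusted p = 0.00951, and 2.16 after scaling, adjusted p = 0.000178), and its call as deposited was lost without replicate 1 of either stage. Glutamate dehydrogenase GDH2 (Phvul.003G225100), which joins or releases ammonium from glutamate, fell, with 2.59, 7.72 and 8.46 TPM at 15 DAF, against 169, 235 and 191 TPM at 10 DAF. Its highest 15 DAF library was below its lowest at 10 DAF, with replicate 1 low at 15 DAF (log2 difference -4.89 ± 0.31, adjusted p = 1.75e-09, and -4.08 after scaling, adjusted p = 2.38e-07).

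Storage proteins pass through the endoplasmic reticulum and are cut in the vacuole. Of 45 genes of folding and translocation tested, 4 were called higher and 13 lower as deposited, and 7 and 0 after scaling, with median log2 differences of -0.65 and 0.17. For all genes the shares were 2.21% higher and 39.8% lower as deposited, and 6.38% and 11.8% after scaling. The Sec61-gamma type gene Phvul.006G217600, part of the translocation channel, had 649, 609.9 and 636 TPM at 15 DAF, against 96.5, 105 and 453 TPM at 10 DAF. Its lowest 15 DAF library exceeded its highest at 10 DAF, with replicate 3 high at 10 DAF (log2 difference 1.92 ± 0.59, adjusted p = 0.0116, and 2.80 after scaling, adjusted p = 0.00139), and its call as deposited was lost without replicate 1 or replicate 2 of 10 DAF. The protein disulphide isomerase PDIL1-2 (Phvul.009G126800) had 612, 919.9 and 689 TPM at 15 DAF, against 590.1, 436.1 and 666 TPM at 10 DAF and was called only after scaling (log2 difference 1.27 after scaling, adjusted p = 0.00148). Calreticulin CRT1a (Phvul.007G200800), a folding chaperone, had 888, 1132 and 1056 TPM at 15 DAF, against 2038, 2059 and 2509 TPM at 10 DAF, lower as deposited, though not without replicate 1 of 15 DAF or replicate 3 of 10 DAF, and uncalled after scaling. Of 7 sorting receptors and processing enzymes tested, 0 were called higher and 0 lower as deposited, and 2 and 0 after scaling, with median log2 differences of -0.12 and 0.49. The receptor VSR3 (Phvul.002G052000) had 185, 199.7 and 187 TPM at 15 DAF, against 93.5, 139.8 and 182 TPM at 10 DAF and was called higher only after scaling (log2 difference 1.39 after scaling, adjusted p = 0.000503).

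Aquaporins were called in both directions, with fewer lower than of all genes, 39.8% as deposited and 11.8% after scaling. Those called higher were few genes, beside 2.21% and 6.38% of all genes. Of 27 aquaporins tested, 2 were called higher and 8 lower as deposited, and 3 and 2 after scaling, with median log2 differences of -0.89 and -0.03. The third called after scaling is described as TIP4;1, named here with its values known. Both higher members as deposited are described as TIP3;1, the aquaporin of the seed storage vacuole in Arabidopsis. Phvul.L006601 had 5001, 3378 and 2682 TPM at 15 DAF, against 34.8, 63.8 and 209.6 TPM at 10 DAF. Thus 15 DAF was higher in every library, with replicate 3 high at 10 DAF (log2 difference 5.50 ± 1.41, adjusted p = 0.00356, and 6.38 after scaling, adjusted p = 0.0084). Phvul.004G136000 had 3842, 2476 and 2025 TPM at 15 DAF, against 175, 506 and 644 TPM at 10 DAF. Levels at 15 DAF were higher in each library, with replicate 1 low at 10 DAF (log2 difference 2.80 ± 0.47, adjusted p = 0.000111, and 3.68 after scaling, adjusted p = 0.000102). The plasma membrane aquaporin PIP1;4 (Phvul.002G290400) fell as deposited, with 86.4, 85.1 and 106 TPM at 15 DAF, against 710.0, 735 and 386 TPM at 10 DAF. Lower values at 15 DAF held for every library (log2 difference -2.66 ± 0.54, adjusted p = 0.000597, and -1.78 after scaling, adjusted p = 0.031). Its call after scaling was lost in 4 of the 6 fits that left out 1 library.

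Further genes with large rises stood outside these routes. LOX1 (Phvul.005G157000), a lipoxygenase that oxidises unsaturated fatty acids, had 2102, 1427 and 706 TPM at 15 DAF, against 4.24, 10.8 and 17.1 TPM at 10 DAF. Values of the 2 stages stood apart with 15 DAF higher, with replicate 1 low at 10 DAF (log2 difference 6.95 ± 0.45, adjusted p = 2e-09, and 7.79 after scaling, adjusted p = 4.12e-08). The LOX1 copy Phvul.005G156700 had 1835, 1556 and 1468 TPM at 15 DAF, against 11.8, 58.4 and 125 TPM at 10 DAF. All 3 libraries of 15 DAF stood higher, with replicate 1 low at 10 DAF (log2 difference 5.14 ± 0.54, adjusted p = 5.72e-07, and 6.01 after scaling, adjusted p = 2.17e-06). Of 35 lipoxygenase and jasmonate genes tested, 3 were called higher and 10 lower as deposited, and 4 and 4 after scaling, with median log2 differences of -0.78 and 0.02. The gene with the largest difference among described genes was Phvul.003G091300, an NAD(P)-binding Rossmann-fold protein whose enzyme activity the description does not give. It had 2743, 1512 and 736 TPM at 15 DAF, against 0.219, 2.17 and 5.15 TPM at 10 DAF. Every 15 DAF library exceeded those of 10 DAF (log2 difference 8.98 ± 0.52, adjusted p = 9.64e-10, and 9.68 after scaling, adjusted p = 3.17e-08). The small heat shock-type gene Phvul.008G227900 had 4904, 4588 and 5339.9 TPM at 15 DAF, against 39.3, 447 and 636 TPM at 10 DAF. No overlap was left and 15 DAF was higher, with replicate 1 low at 10 DAF (log2 difference 4.45 ± 0.74, adjusted p = 0.000112, and 5.33 after scaling, adjusted p = 0.000293). Of 52 heat shock genes tested, 3 were called higher and 25 lower as deposited, and 3 and 7 after scaling, with median log2 differences of -1.02 and -0.36. The shares of all genes were 2.21% higher and 39.8% lower as deposited, and 6.38% and 11.8% after scaling.

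The more abundant of 2 alcohol dehydrogenase genes was a different one at each stage. Phvul.001G067300, described as ADH1, had 5591, 3503 and 2198 TPM at 15 DAF, against 33.8, 112 and 197 TPM at 10 DAF. Each 15 DAF value lay above all of 10 DAF, with replicate 1 low at 10 DAF (log2 difference 5.25 ± 0.64, adjusted p = 4.1e-06, and 6.13 after scaling, adjusted p = 3.43e-06). Phvul.001G064000, with the same description, had 181, 479.5 and 490.4 TPM at 15 DAF, against 1016, 1411 and 2557 TPM at 10 DAF. Here the 15 DAF values lay below all of 10 DAF, with replicate 1 low at 15 DAF (log2 difference -2.14 ± 0.87, adjusted p = 0.044), but that call was lost after scaling and in all 6 fits that left out 1 library. Pyruvate decarboxylase Phvul.010G078000, the enzyme before alcohol dehydrogenase in fermentation, was among the largest declines, with 0.350, 2.53 and 9.80 TPM at 15 DAF, against 131, 185 and 174 TPM at 10 DAF. The 2 stages stood apart with 15 DAF lower, with replicate 3 high at 15 DAF (log2 difference -5.45 ± 0.64, adjusted p = 2.35e-06, and -4.74 after scaling, adjusted p = 0.000392). Of 12 fermentation genes tested, 1 was called higher and 4 lower as deposited, and 4 and 1 after scaling, with median log2 differences of -0.64 and -0.09. Across all genes 2.21% were higher and 39.8% lower as deposited, and 6.38% and 11.8% after scaling.

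**Figure D4:**
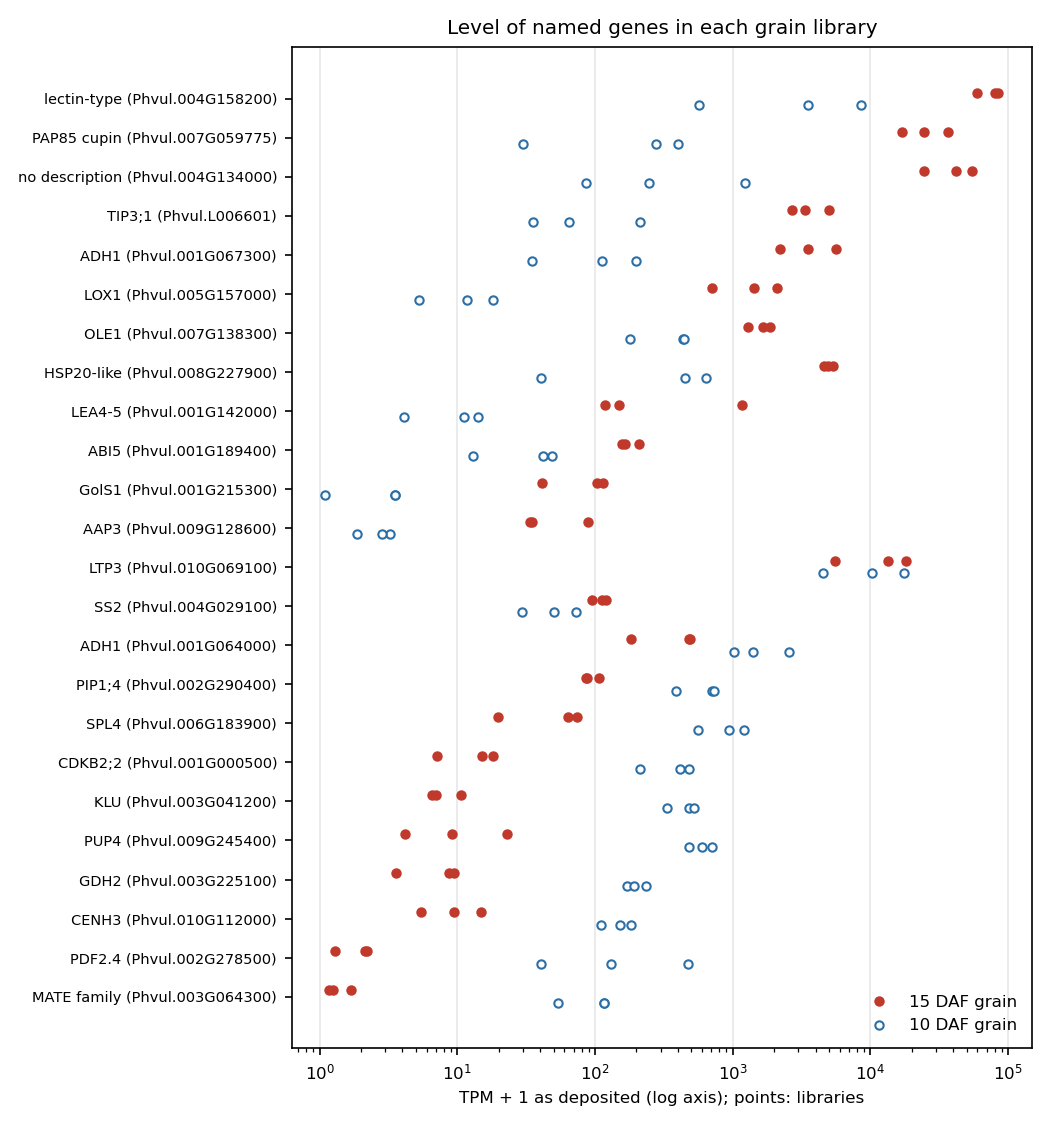
TPM + 1 as deposited (x axis, log scale) of 24 named genes (rows) in each grain library, filled red points for 15 DAF above open blue points for 10 DAF. Storage, TIP3;1 and LOX1 genes lie to the right at 15 DAF, the 3 red and 3 blue points of LTP3 overlap, and cell division and growth genes lie to the left at 15 DAF.

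The 10 strongest declines among described genes were of several kinds. The P450 enzyme KLU (Phvul.003G041200), which in Arabidopsis promotes the growth of organs and seeds, had 5.51, 6.02 and 9.67 TPM at 15 DAF, against 484, 525 and 333 TPM at 10 DAF. Without overlap 15 DAF was the lower stage (log2 difference -5.80 ± 0.34, adjusted p = 9.64e-10, and -4.98 after scaling, adjusted p = 5.75e-08). The purine permease PUP4 (Phvul.009G245400) had 3.14, 8.22 and 21.8 TPM at 15 DAF, against 479.9, 704 and 601 TPM at 10 DAF. Again the lower values were all of 15 DAF, with replicate 3 high at 15 DAF (log2 difference -5.95 ± 0.41, adjusted p = 4.23e-09, and -5.12 after scaling, adjusted p = 9.36e-07). IAGLU (Phvul.001G265400), which links glucose to auxin, had 1.22, 1.60 and 1.07 TPM at 15 DAF, against 55.2, 127 and 255 TPM at 10 DAF. The 15 DAF libraries all stood lower (log2 difference -5.74 ± 0.49, adjusted p = 4.47e-08, and -5.07 after scaling, adjusted p = 9.36e-07). All 3 were without overlap, and the 10 DAF values of IAGLU varied most.

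A carrier of the MATE family (Phvul.003G064300) had 0.682, 0.176 and 0.245 TPM at 15 DAF, against 116, 114 and 53.0 TPM at 10 DAF (log2 difference -6.06, and -5.53 after scaling). This gene reached 1 TPM only at 10 DAF and so entered through that stage, which in part sets its call. The defensin-type PDF2.4 (Phvul.002G278500) had 0.301, 1.13 and 1.22 TPM at 15 DAF, against 469, 130.3 and 39.9 TPM at 10 DAF. Grain of 15 DAF was lower without overlap, with replicate 1 high at 10 DAF (log2 difference -6.22 ± 0.52, adjusted p = 3.51e-08, and -5.61 after scaling, adjusted p = 3.81e-06). Ribonuclease RNS3 (Phvul.006G112900), a pectin lyase-like gene (Phvul.002G063100), a peroxidase (Phvul.011G128200) and the cysteine-rich LCR15 (Phvul.011G186100) completed the 10, with log2 differences of -5.03, -5.25, -5.13 and -5.01. All 20 largest rises and declines named by this rule kept their call on both scales in every fit that left out 1 grain library. Of 16 defensin-like genes tested, 0 were called higher and 12 lower as deposited, and 1 and 10 after scaling, with median log2 differences of -2.52 and -1.85. More of them were lower than of all genes, beside 39.8% as deposited and 11.8% after scaling. Against that direction, the most abundant of them, PDF2.1 (Phvul.002G278400), had 2849, 1746 and 3028 TPM at 15 DAF, against 889.8, 1347 and 1436 TPM at 10 DAF, called higher only after scaling (log2 difference 1.92 after scaling, adjusted p = 0.0238), a call lost without replicate 1 or 3 of 15 DAF or replicate 1 of 10 DAF.

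Mitotic cyclins and kinases were lower almost throughout, and more of the kinesins, replication genes and histones were lower than the 39.8% of all genes as deposited and 11.8% after scaling. Of 29 mitotic cyclins and kinases tested, 0 were called higher and 28 lower as deposited, and 0 and 23 after scaling, with median log2 differences of -2.10 and -1.69. Their sum was 74.8, 121 and 118 TPM at 15 DAF, against 1294, 1427 and 869.8 TPM at 10 DAF. The mitotic kinase CDKB2;2 (Phvul.001G000500) had 6.10, 17.2 and 14.01 TPM at 15 DAF, against 415, 479 and 212 TPM at 10 DAF. Between the stages there was no overlap (log2 difference -4.80 ± 0.82, adjusted p = 0.000136, and -3.96 after scaling, adjusted p = 0.00269). CDKB1;2 (Phvul.008G253500), active in the same phase, had 9.59, 20.3 and 20.1 TPM at 15 DAF, against 176, 219.9 and 125 TPM at 10 DAF. None of the 15 DAF values reached those of 10 DAF (log2 difference -3.34 ± 0.47, adjusted p = 2.09e-05, and -2.48 after scaling, adjusted p = 0.000478). Of 38 kinesins tested, 0 were called higher and 25 lower as deposited, and 0 and 20 after scaling, with median log2 differences of -1.81 and -1.13. The most abundant, KINESIN-13A (Phvul.009G248600), passed on neither scale, with 30.4, 32.6 and 24.5 TPM at 15 DAF, against 42.0, 31.2 and 49.4 TPM at 10 DAF, whereas the spindle kinesin ATK1 (Phvul.006G196400) fell (log2 difference -3.07 ± 0.43, adjusted p = 1.93e-05, and -2.30 after scaling, adjusted p = 0.00132).

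Of 39 DNA replication genes tested, 0 were called higher and 31 lower as deposited, and 0 and 20 after scaling, with median log2 differences of -1.80 and -1.05. The sliding clamp PCNA1 (Phvul.006G137800) had 12.8, 22.3 and 32.5 TPM at 15 DAF, against 115, 131 and 143 TPM at 10 DAF. Its highest 15 DAF library was below its lowest at 10 DAF (log2 difference -2.56 ± 0.45, adjusted p = 0.000193, and -1.70 after scaling, adjusted p = 0.00399). POLD4 (Phvul.002G201100), a subunit of DNA polymerase delta, had 4.91, 8.80 and 9.40 TPM at 15 DAF, against 128, 116 and 75.6 TPM at 10 DAF. Lower values at 15 DAF held for every library (log2 difference -3.63 ± 0.43, adjusted p = 2.44e-06, and -2.81 after scaling, adjusted p = 3.4e-05). Of 45 core histone genes tested, 1 was called higher and 42 lower as deposited, and 1 and 29 after scaling, with median log2 differences of -2.35 and -1.48. They summed to 4022, 5553 and 7498 TPM at 15 DAF, against 21831, 25316 and 21666 TPM at 10 DAF. Without replicate 1 of 15 DAF the count of lower histone genes after scaling was 16 in place of 29. CENH3 (Phvul.010G112000), the histone of centromeres, had 4.44, 8.42 and 13.9 TPM at 15 DAF, against 152, 182 and 109.7 TPM at 10 DAF. Here the 15 DAF values lay below all of 10 DAF (log2 difference -3.998 ± 0.50, adjusted p = 4.8e-06, and -3.17 after scaling, adjusted p = 0.000249). The 1 histone gene called higher, Phvul.011G087500, was at 8.19, 4.17 and 7.94 TPM at 15 DAF, against 1.20, 3.36 and 3.31 TPM at 10 DAF, and its call as deposited was lost without replicate 1 or 3 of 15 DAF or replicate 1 of 10 DAF.

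Most ribosomal protein genes were called lower as deposited, beside 39.8% of all genes. Fewer were after scaling, though still more than the 11.8% of all genes. Of 306 ribosomal protein genes tested, 0 were called higher and 237 lower as deposited, and 2 and 73 after scaling, with median log2 differences of -1.501 and -0.67. The sum was 35024, 54246 and 62254 TPM at 15 DAF, against 154802, 186797 and 145059 TPM at 10 DAF. Their count of lower genes after scaling was 32 without replicate 1 of 15 DAF, 38 without replicate 2 of 10 DAF and 114 without replicate 3 of 15 DAF. The most abundant, an L18e/L15 family gene (Phvul.003G204100), had 1029, 1953 and 1662 TPM at 15 DAF, against 6399.9, 8636 and 4659 TPM at 10 DAF. The 2 stages stood apart with 15 DAF lower (log2 difference -2.09 ± 0.41, adjusted p = 0.000465, and -1.21 after scaling, adjusted p = 0.0136), with the call after scaling lost without replicate 1 of 15 DAF or replicate 2 of 10 DAF. GRP7 (Phvul.011G045000), an RNA-binding protein of the circadian clock and cold response, was among the 10 most abundant genes at 10 DAF and fell, with 709, 1018 and 1387 TPM at 15 DAF, against 5322, 7052 and 5764 TPM at 10 DAF. Without overlap 15 DAF was the lower stage (log2 difference -2.58 ± 0.41, adjusted p = 6.72e-05, and -1.70 after scaling, adjusted p = 0.0014).

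Some of the most abundant genes of 10 DAF stayed abundant at 15 DAF. LTP3 (Phvul.010G069100), a lipid transfer protein, had 18106, 13340.4 and 5548 TPM at 15 DAF, against 17434, 4509.6 and 10242 TPM at 10 DAF and passed on neither scale. Values of both stages overlapped (log2 difference 0.24 ± 0.68, adjusted p = 0.768, and 1.13 after scaling, adjusted p = 0.172). RAS1 (Phvul.008G097900), named for a response to abscisic acid and salt, had 1401, 2229 and 3087 TPM at 15 DAF, against 2828, 3974 and 5626 TPM at 10 DAF and also passed on neither. The undescribed gene Phvul.002G030000 had 8559, 8295 and 4281 TPM at 15 DAF, against 6632, 2744 and 6198 TPM at 10 DAF, called higher after scaling (log2 difference 1.36 after scaling, adjusted p = 0.0326) until replicate 1 or 2 of 15 DAF or replicate 2 of 10 DAF was left out. Of 52 genes of the lipid-transfer and 2S albumin family tested, 1 was called higher and 24 lower as deposited, and 2 and 14 after scaling, with median log2 differences of -1.24 and -0.53. All genes gave 2.21% higher and 39.8% lower as deposited, and 6.38% and 11.8% after scaling.

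More of the photosynthesis genes were called lower than of all genes on both scales, beside 39.8% as deposited and 11.8% after scaling. Of 51 photosystem subunits tested, 0 were called higher and 34 lower as deposited, and 0 and 14 after scaling, with median log2 differences of -1.27 and -0.59. Of 28 antenna genes tested, 0 were called higher and 20 lower as deposited, and 0 and 9 after scaling, with median log2 differences of -1.83 and -1.07. Summed, the antenna genes had 992, 1686 and 2059 TPM at 15 DAF, against 4998, 5935 and 5896 TPM at 10 DAF. LHCB1.3 (Phvul.002G196400), the major antenna protein of photosystem II, had 227, 417 and 555 TPM at 15 DAF, against 2196, 3151 and 2295 TPM at 10 DAF. Again the lower values were all of 15 DAF (log2 difference -2.74 ± 0.56, adjusted p = 0.000649, and -1.86 after scaling, adjusted p = 0.0112), with the call after scaling lost without replicate 1 of 15 DAF or replicate 2 of 10 DAF. PSAE-2 (Phvul.008G133700), a photosystem I subunit, had 3.86, 14.2 and 25.4 TPM at 15 DAF, against 156, 146 and 173 TPM at 10 DAF. The 15 DAF libraries all stood lower, with replicate 1 low at 15 DAF (log2 difference -3.67 ± 0.53, adjusted p = 2.87e-05, and -2.84 after scaling, adjusted p = 0.00145). Of 9 Calvin cycle genes tested, 0 were called higher and 5 lower as deposited, and 0 and 2 after scaling, with median log2 differences of -1.26 and -0.50. The plastid aldolase FBA2 (Phvul.011G039100) had 10.9, 20.2 and 19.3 TPM at 15 DAF, against 153, 189 and 177 TPM at 10 DAF. Grain of 15 DAF was lower without overlap (log2 difference -3.33 ± 0.50, adjusted p = 4e-05, and -2.47 after scaling, adjusted p = 0.000502). The lower counts after scaling were 6 of the photosystem and 4 of the antenna genes without replicate 1 of 15 DAF, the library with the lowest sum of both lists.

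Expansins, which loosen the wall for growth, were mostly lower as deposited, where 39.8% of all genes were, against 11.8% after scaling. Of 21 expansins tested, 1 was called higher and 14 lower as deposited, and 3 and 7 after scaling, with median log2 differences of -1.86 and -1.27. EXPA1 (Phvul.008G037500) had 22.1, 32.6 and 15.9 TPM at 15 DAF, against 429.5, 328 and 216 TPM at 10 DAF. Between the stages there was no overlap (log2 difference -3.73 ± 0.65, adjusted p = 0.000161, and -2.87 after scaling, adjusted p = 0.00612). EXPA15 (Phvul.009G186400) overlapped, with 328, 248 and 146 TPM at 15 DAF, against 285, 106 and 142 TPM at 10 DAF, and its call after scaling was lost in 4 of the 6 fits that left out 1 library. Of 17 xyloglucan enzymes tested, 2 were called higher and 3 lower as deposited, and 2 and 3 after scaling, with median log2 differences of -0.45 and 0.34. XTH23 (Phvul.003G147300), which cuts and rejoins xyloglucan, rose, with 73.7, 44.7 and 36.4 TPM at 15 DAF, against 3.08, 2.22 and 5.30 TPM at 10 DAF. Its lowest 15 DAF library exceeded its highest at 10 DAF (log2 difference 3.53 ± 0.34, adjusted p = 2.08e-07, and 4.31 after scaling, adjusted p = 2.1e-07). Of 19 cellulose and xylan genes tested, 1 was called higher and 6 lower as deposited, and 1 and 4 after scaling, with median log2 differences of -0.08 and 0.70. FRA8 (Phvul.011G085300), of the exostosin family, had 1.56, 2.04 and 2.32 TPM at 15 DAF, against 24.3, 23.1 and 12.9 TPM at 10 DAF. None of the 15 DAF values reached those of 10 DAF (log2 difference -2.78 ± 0.39, adjusted p = 1.83e-05, and -2.08 after scaling, adjusted p = 0.000381).

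Seed coat pigment genes varied strongly among the 10 DAF libraries. Of 37 flavonoid and tannin genes tested, 0 were called higher and 18 lower as deposited, and 0 and 5 after scaling, with median log2 differences of -1.503 and -0.68. The list summed to 846, 1470.5 and 514 TPM at 15 DAF, against 6659, 1849.7 and 2280.4 TPM at 10 DAF, and without replicate 1 of 10 DAF, the highest library, 11 genes were lower as deposited in place of 18. After scaling the sums of the stages overlapped, at 1235, 1935 and 756 against 4999, 1488 and 1703. Flavanone 3-hydroxylase (Phvul.003G261900) had 336, 621 and 170.2 TPM at 15 DAF, against 3173, 689.7 and 838 TPM at 10 DAF. Its highest 15 DAF library was below its lowest at 10 DAF, with replicate 1 high at 10 DAF (log2 difference -1.89 ± 0.62, adjusted p = 0.0162), a call lost without replicate 3 of 15 DAF or replicate 1 of 10 DAF and after scaling. A chalcone isomerase-type gene (Phvul.003G262100) fell on both scales, with 1.56, 3.62 and 4.40 TPM at 15 DAF, against 122, 124 and 82.9 TPM at 10 DAF. Lower values at 15 DAF held for every library (log2 difference -4.77 ± 0.46, adjusted p = 2.4e-07, and -4.01 after scaling, adjusted p = 3.49e-05). For BAN the values were 94.1, 191 and 49.6 TPM at 15 DAF, against 602, 185 and 203 TPM at 10 DAF, and they overlapped, with a call as deposited that was lost without replicate 1 or 3 of 15 DAF or replicate 1 of 10 DAF. Of 8 seed coat markers that passed the filter 7 were lower as deposited and 1 after scaling. As deposited, all 15 genes matched to seed coat markers summed to 115 to 379 TPM at 15 DAF and 391 to 1492 TPM at 10 DAF. The part of seed coat content in these results was not tested. Of 25 class III peroxidases tested, 1 was called higher and 10 lower as deposited, and 5 and 4 after scaling, with median log2 differences of -0.91 and -0.41. The shares of all genes were 2.21% higher and 39.8% lower as deposited, and 6.38% and 11.8% after scaling.

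Growth hormone genes differed by hormone. More of the auxin and gibberellin genes, and fewer of the cytokinin genes, were lower as deposited than the 39.8% of all genes. Of 109 auxin genes tested, 3 were called higher and 62 lower as deposited, and 8 and 26 after scaling, with median log2 differences of -1.13 and -0.43. The auxin response repressor IAA17 (Phvul.005G173000) had 215, 256 and 103 TPM at 15 DAF, against 892, 658 and 719 TPM at 10 DAF. Here the 15 DAF values lay below all of 10 DAF (log2 difference -2.07 ± 0.59, adjusted p = 0.0072, and -1.19 after scaling, adjusted p = 0.0683). Of 29 gibberellin genes tested, 1 was called higher and 16 lower as deposited, and 2 and 6 after scaling, with median log2 differences of -1.499 and -0.71. The gibberellin-regulated gene Phvul.007G243400 had 0, 0.0900 and 1.40 TPM at 15 DAF, against 28.8, 49.1 and 30.5 TPM at 10 DAF. The 2 stages stood apart with 15 DAF lower (log2 difference -4.71 ± 0.35, adjusted p = 9.93e-09, and -4.21 after scaling, adjusted p = 1.07e-06). GASA1 (Phvul.001G006300), of the same family, rose, with 64.3, 61.1 and 68.8 TPM at 15 DAF, against 4.46, 5.43 and 17.1 TPM at 10 DAF. Thus 15 DAF was higher in every library, with replicate 3 high at 10 DAF (log2 difference 2.93 ± 0.46, adjusted p = 6.18e-05, and 3.75 after scaling, adjusted p = 6.67e-05). Of 34 cytokinin genes tested, 1 was called higher and 11 lower as deposited, and 1 and 4 after scaling, with median log2 differences of -0.78 and -0.06. Genes described as AHP1, a phosphotransmitter of the cytokinin signal, differed by copy. Phvul.003G099000 had 3.45, 5.86 and 11.4 TPM at 15 DAF, against 0.263, 0.475 and 1.03 TPM at 10 DAF. Levels at 15 DAF were higher in each library (log2 difference 2.21 ± 0.48, adjusted p = 0.00097, and 2.77 after scaling, adjusted p = 0.000192). Phvul.006G159300 had 9.28, 11.9 and 12.4 TPM at 15 DAF, against 32.5, 21.8 and 32.1 TPM at 10 DAF. As deposited this copy was lower at 15 DAF without overlap, but it was not called after scaling (log2 difference -1.27 ± 0.39, adjusted p = 0.0106, and -0.44 after scaling, adjusted p = 0.227).

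Of all genes 2.21% were called higher and 39.8% lower as deposited, and 6.38% and 11.8% after scaling. The lower counts of squamosa promoter-binding, NAC and WRKY factors as deposited were near or somewhat below that share. Too few were tested to read 0 called higher as a difference. After scaling more of the squamosa promoter-binding and NAC factors were lower than of all genes, and fewer of the WRKY factors. More of the NAC factors were also higher then. SPL4 (Phvul.006G183900), a squamosa promoter-binding factor, had 18.8, 73.1 and 62.6 TPM at 15 DAF, against 1217, 934 and 558 TPM at 10 DAF. Again the lower values were all of 15 DAF, with replicate 1 low at 15 DAF (log2 difference -4.25 ± 0.53, adjusted p = 5.41e-06, and -3.38 after scaling, adjusted p = 0.000208). Of 16 squamosa promoter-binding factors tested, 0 were called higher and 6 lower as deposited, and 0 and 5 after scaling, with median log2 differences of -0.81 and -0.02. NAC041 (Phvul.001G091100) had 4.54, 4.32 and 4.28 TPM at 15 DAF, against 179, 67.8 and 86.2 TPM at 10 DAF. The 15 DAF libraries all stood lower (log2 difference -4.25 ± 0.55, adjusted p = 7.75e-06, and -3.45 after scaling, adjusted p = 0.000326). Of 27 NAC factors tested, 0 were called higher and 8 lower as deposited, and 4 and 6 after scaling, with median log2 differences of -0.62 and 0.102. Of 29 WRKY factors tested, 0 were called higher and 10 lower as deposited, and 1 and 2 after scaling, with median log2 differences of -0.76 and 0.02. WRKY11 (Phvul.001G060200) had 9.87, 8.46 and 9.72 TPM at 15 DAF, against 59.2, 61.9 and 51.8 TPM at 10 DAF. Grain of 15 DAF was lower without overlap (log2 difference -2.50 ± 0.40, adjusted p = 7.82e-05, and -1.67 after scaling, adjusted p = 0.00139).

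Of 20 embryo and endosperm regulators tested, 0 were called higher and 15 lower as deposited, and 1 and 6 after scaling, with median log2 differences of -1.39 and -0.74. The lower shares of all genes were 39.8% as deposited and 11.8% after scaling. ANT (Phvul.001G031200), an activator of organ growth, had 0.408, 0.461 and 1.54 TPM at 15 DAF, against 6.23, 7.96 and 8.93 TPM at 10 DAF. Between the stages there was no overlap (log2 difference -2.31 ± 0.22, adjusted p = 1.48e-07, and -1.76 after scaling, adjusted p = 4.62e-05). AIL6 (Phvul.003G288500), of the same AP2 family, had 65.8, 54.8 and 37.2 TPM at 15 DAF, against 32.1, 52.8 and 44.7 TPM at 10 DAF and was called higher only after scaling, a call lost without replicate 1 of either stage. Of 24 MADS-box factors tested, 1 was called higher and 10 lower as deposited, and 3 and 3 after scaling, with median log2 differences of -0.92 and -0.15. Their lower counts were near the shares of all genes. SEP3 (Phvul.L003446), a floral organ factor, had 47.3, 108 and 72.5 TPM at 15 DAF, against 258, 245 and 253 TPM at 10 DAF. None of the 15 DAF values reached those of 10 DAF (log2 difference -1.80 ± 0.56, adjusted p = 0.0116), a call lost after scaling and without replicate 1 of 15 DAF.

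Of 30 genes of DNA methylation and small RNA tested, 0 were called higher and 17 lower as deposited, and 0 and 9 after scaling, with median log2 differences of -1.14 and -0.37. Of all genes 39.8% were lower as deposited and 11.8% after scaling. DCL2 (Phvul.008G129200), a dicer, had 0, 0.368 and 0 TPM at 15 DAF, against 10.5, 14.5 and 8.86 TPM at 10 DAF (log2 difference -3.44, and -3.06 after scaling). It passed the filter through 10 DAF alone, so its call is set in part by the filter. The demethylase DME (Phvul.001G186500) passed on neither scale, with 93.8, 101 and 92.1 TPM at 15 DAF, against 99.5, 156 and 135 TPM at 10 DAF. Of 50 Polycomb and SET genes tested, 0 were called higher and 22 lower as deposited, and 0 and 7 after scaling, with median log2 differences of -0.88 and -0.11. These lower counts were near the shares of all genes. ATXR6 (Phvul.008G015700), which marks histone H3 during replication, had 1.94, 2.15 and 3.06 TPM at 15 DAF, against 27.0, 38.7 and 23.5 TPM at 10 DAF. Its highest 15 DAF library was below its lowest at 10 DAF (log2 difference -3.17 ± 0.36, adjusted p = 1.92e-06, and -2.43 after scaling, adjusted p = 6.31e-05). FIE (Phvul.005G091500), a Polycomb subunit, was lower as deposited, with 17.8, 29.4 and 31.1 TPM at 15 DAF, against 71.9, 80.8 and 87.1 TPM at 10 DAF, and uncalled after scaling. Of 6 lectin genes whose description names no kinase tested, 0 were called higher and 3 lower as deposited, and 0 and 1 after scaling, with median log2 differences of -1.03 and -0.38. The abundant lectin-type genes above are not in that list, because their descriptions name a kinase family.

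Markers of the parts of a seed were summed as deposited to set beside these lists. No marker sum was taken after scaling, where a lower sum at 15 DAF need not hold. Of 16 genes matched to embryo markers the 4 oleosins, all called higher, summed to 3103 to 4363 TPM at 15 DAF, against 301 to 878 TPM at 10 DAF. The other 12, most of it NF-YB6, summed to 721 to 826 TPM at 15 DAF, against 1106 to 1419 TPM at 10 DAF. Of the 4 of them tested 2 were called lower as deposited and none after scaling, where 1 was called higher. The 14 endosperm genes, most of it FIE, summed to 26.2 to 42.2 TPM at 15 DAF, against 103 to 121 TPM at 10 DAF. The 28 vascular genes had 258 to 372 TPM at 15 DAF, against 324 to 447 TPM at 10 DAF, and overlapped as deposited. Of the 20 vascular genes tested 1 was called higher and 5 lower as deposited, and 2 and 1 after scaling. The 35 genes of pod wall and green tissue, mostly antenna genes, had 965 to 1796 TPM at 15 DAF, against 4450 to 5345 TPM at 10 DAF. All 4 endosperm genes at 0 in the 6 libraries were AGL62 copies. The part of a changing share of embryo, endosperm or coat in the results was not tested.

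**Figure D5:**
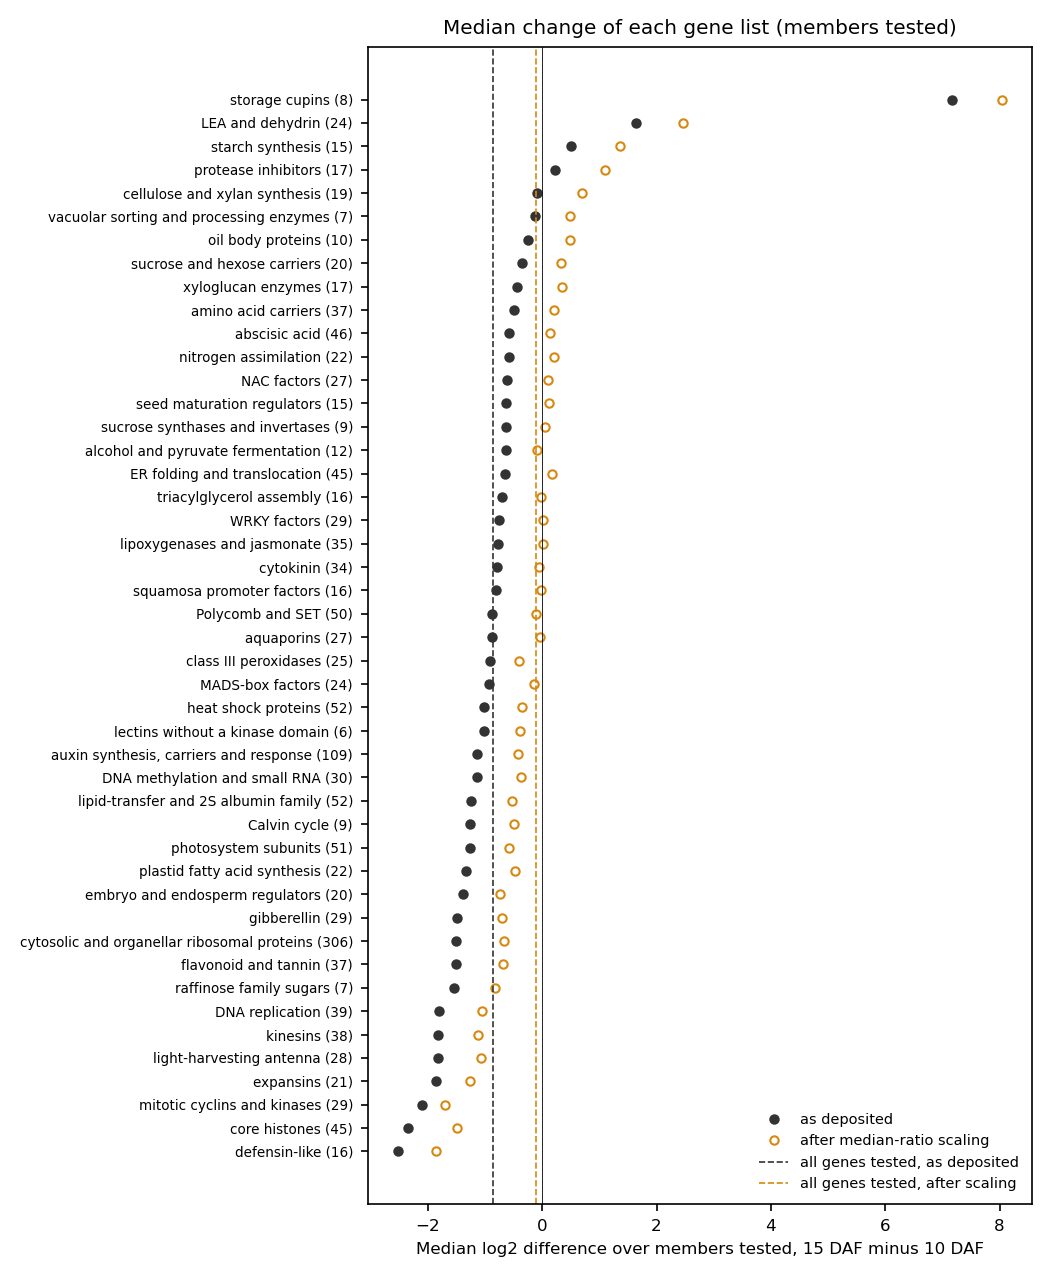
Median log2 difference (x axis, 15 DAF minus 10 DAF) over the tested members of 46 gene lists (rows, number of members in brackets), filled points as deposited and open points after median-ratio scaling. Dashed lines give the medians of all genes tested, -0.85 and -0.11, and cupins (7.16) and LEA genes (1.64) lie farthest right as deposited, defensin-like genes (-2.52) and core histones (-2.35) farthest left.

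Called higher only after scaling were 722 genes, and the 6 largest differences among those with at least 20 TPM at 15 DAF and no overlap after scaling included SS2 and APL3 above. A Kunitz-type inhibitor (Phvul.004G137600) had 115, 50.6 and 60.0 TPM at 15 DAF, against 17.8, 17.0 and 18.6 TPM at 10 DAF. Values of the 2 stages stood apart with 15 DAF higher (log2 difference 1.93 ± 0.93, adjusted p = 0.0834, and 2.78 after scaling, adjusted p = 0.0354), with the call after scaling lost in all 6 fits that left out 1 library. VTE4 (Phvul.011G017200), which converts gamma- to alpha-tocopherol, had 40.7, 16.3 and 11.5 TPM at 15 DAF, against 4.51, 3.19 and 8.47 TPM at 10 DAF. All 3 libraries of 15 DAF stood higher (log2 difference 1.79 ± 0.80, adjusted p = 0.0659, and 2.58 after scaling, adjusted p = 0.0244), with the call after scaling lost without replicate 1 of 15 DAF or replicate 1 or 2 of 10 DAF. An adenine nucleotide alpha hydrolase-like gene (Phvul.007G200700) had 214, 284 and 209 TPM at 15 DAF, against 42.7, 97.9 and 150 TPM at 10 DAF. Every 15 DAF library exceeded those of 10 DAF (log2 difference 1.43 ± 0.61, adjusted p = 0.0531, and 2.31 after scaling, adjusted p = 0.0112), with the call after scaling lost without replicate 1 of 10 DAF (adjusted p = 0.0624). The last was a gene of unknown function (Phvul.002G270700), whose call was lost without replicate 1 of 15 DAF or replicate 2 of 10 DAF.

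Pods of the same stages show which changes differed between the tissues. Pod 15 DAF replicate 3 summed to 436072 TPM and the other pod libraries of these stages to between 895916 and 993461 TPM, so the deposited pod values of that library lie on another scale. The change in grain minus the change in pod was called higher for 318 genes (1.84%) and lower for 2096 (12.1%) as deposited, and for 760 (4.39%) and 937 (5.42%) after scaling. The count of 2096 was 6442 without that library, 1084 and 1154 without pod 15 DAF replicates 1 and 2, and 1086 and 1303 when replicate 1 of grain at 15 or 10 DAF was dropped. The count of 318 was 208 without grain 15 DAF replicate 1. After scaling the lower count ranged from 592, without grain 15 DAF replicate 1, to 1003 over the 12 fits that left out 1 library. Of the 382 genes called higher in grain 224 (58.6%) also had a higher change in grain than in pod, and of the 6878 called lower 1944 (28.3%) had a lower one, counts that share the grain libraries.

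The 3 largest such differences upward were in a Kunitz-type inhibitor, the Rossmann-fold gene and a cupin. Phvul.004G129600 averaged 31.5 TPM in grain at 15 DAF against 3.00 TPM at 10 DAF, and 0.796 ± 0.654 TPM in pod at 15 DAF against 182 ± 187 TPM at 10 DAF, a log2 difference between the changes of 8.96 ± 1.12 (adjusted p = 2.26e-05, and 9.51 after scaling, adjusted p = 0.000129). In this gene the change in pod was the larger part, with a log2 difference of -6.05 there, and the pod spread at 10 DAF was as large as the mean. Phvul.003G091300 averaged 1663 TPM in grain at 15 DAF against 2.51 TPM at 10 DAF, and 1.06 ± 0.887 TPM in pod at 15 DAF against 0.922 ± 0.821 TPM at 10 DAF, a log2 difference between the changes of 8.88 ± 0.73 (adjusted p = 6.67e-07, and 9.44 after scaling, adjusted p = 4.92e-06). Phvul.007G059750 averaged 8525 TPM in grain at 15 DAF against 55.7 TPM at 10 DAF, and 1.03 ± 0.658 TPM in pod at 15 DAF against 1.51 ± 0.873 TPM at 10 DAF, a log2 difference between the changes of 8.32 ± 0.99 (adjusted p = 1.38e-05, and 8.98 after scaling, adjusted p = 0.000105). Downward, the MATE carrier, IAGLU and PDF2.4 led. Phvul.003G064300 averaged 0.368 TPM in grain at 15 DAF against 94.3 TPM at 10 DAF, and 11.1 ± 6.55 TPM in pod at 15 DAF against 4.29 ± 2.74 TPM at 10 DAF, a log2 difference between the changes of -7.17 ± 1.00 (adjusted p = 7.03e-05, and -6.75 after scaling, adjusted p = 0.000728). That gene passed the filter through grain at 10 DAF alone. Phvul.001G265400 averaged 1.30 TPM in grain at 15 DAF against 146 TPM at 10 DAF, and 10.5 ± 6.35 TPM in pod at 15 DAF against 5.54 ± 1.59 TPM at 10 DAF, a log2 difference between the changes of -6.36 ± 0.69 (adjusted p = 5.14e-06, and -5.81 after scaling, adjusted p = 3.19e-05). Phvul.002G278500 averaged 0.881 TPM in grain at 15 DAF against 213 TPM at 10 DAF, and 0.0817 ± 0.141 TPM in pod at 15 DAF against 0.109 ± 0.189 TPM at 10 DAF, a log2 difference between the changes of -6.19 ± 0.73 (adjusted p = 1.27e-05, and -5.65 after scaling, adjusted p = 0.000332). All 6 stayed called in each of the 12 fits that left out 1 grain or pod library, as deposited and after scaling, with adjusted p of at most 0.00305.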

How the data were processed

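Gene expression was measured by RNA sequencing in 18 libraries of grain and pod at 10, 15 and 20 DAF, and per the labels' protocols TRIzol RNA went into a SMARTER mRNA kit. The authors deposited TPM, with a description taken from the best match for most genes and none for 4644 of 27420. Aligner, counting tool and genome build are unknown, being not given in the sources used here. Since TPM holds no read depth, no counting interval was computed. Each column was assigned through the tissue, stage and number in its name. Pod 10 DAF titles carry other numbers than their columns, so those columns are named c1, c2 and c3 and belong to the group without a replicate number. All 27420 gene rows name a gene, and 0 columns had no sample or group.

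Differences come from limma version 3.58.1 in R 4.3.3 on log2(TPM + 1), 15 DAF minus 10 DAF, for genes that reached 1 TPM in 3 or more of the 6 grain libraries. The fit held 6 group means over all 18 libraries, with 12 residual degrees of freedom and limma's intensity trend, and the standard errors given after ± are those of the fit. Such a difference understates the change of low genes. P-values are 2-sided and were adjusted by Benjamini-Hochberg over the 17297 genes. The difference of the change between grain and pod was tested in the same fit. Median-ratio scaling was run as a second reading of the differences and calls.

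Gene lists, 46 in all, were search patterns on the deposited descriptions, and members, lists and named genes were chosen with earlier results of these data known. The sum of a list or of markers covers all genes matched, tested or not. The named genes are the 10 strongest called rises and the 10 strongest declines among described, non-overlapping genes of 20 TPM or more, the 10 most abundant genes of each stage, the 2 most abundant and the most changed called members of each list with at least 5 TPM, the 3 largest grain minus pod differences each way, and the 6 largest rises called only after scaling. Alternatives were a pseudocount of 0.1, no filter, a filter at 5 TPM, leaving out the 50 most abundant genes, fits on the grain libraries alone, a replicate block, no trend, no minimum difference and each library left out. In simulated data for this comparison over 17297 genes, a log2 change of 1.5 was recovered for 55 of 100 genes and one of 3 for 98 of 100, 0 with the wrong sign, beside 4 false calls. Changes were planted in more abundant genes only, with independent noise and the fit as deposited. The simulation held no shift in composition, no unequal TPM sums and no deviation of a whole library. Its counts are therefore not error rates of the calls in the real data. No sequence, coordinate or gene name from a reference was used, because the reference table shared 0 identifiers with the expression table.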

Additional observations from a re-analysis of the deposited data

Results flagged for a closer look

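The change between 15 and 10 DAF differed between grain and pod for many genes, by the test of that difference in the limma fit. The change was higher in grain than in pod for 318 genes and lower for 2096 as deposited. Named genes with a higher change in grain were the Kunitz-type inhibitor Phvul.004G129600 (8.96 on the log2 scale), the Rossmann-fold gene Phvul.003G091300 (8.88) and the cupin Phvul.007G059750 (8.32). Those with a lower change in grain were the MATE family carrier Phvul.003G064300 (-7.17), which passed the filter through grain at 10 DAF alone, IAGLU (Phvul.001G265400, -6.36) and PDF2.4 (Phvul.002G278500, -6.19). Pod 15 DAF replicate 3, whose TPM sum is below that of the other libraries, moves the count of 2096 to 6442 when it is left out, and the 6 named values stayed called without it. Groups of 3 libraries were not searched for outlying samples.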

How the results depend on the processing

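No called result changed direction under the settings tried. Median-ratio scaling gave 1104 higher and 2040 lower in place of 382 and 6878, a median of -0.11 in place of -0.85, and grain minus pod counts of 760 and 937 in place of 318 and 2096, and among the named genes 35 calls as deposited were lost and 16 gained. Leaving out the 50 most abundant genes gave 1341 higher and 1858 lower, a median of -0.029 and grain minus pod counts of 633 and 916 on the deposited scale, and a median of -0.10 after scaling. Of those, 362 and 1858 genes were shared with the calls as deposited. A pseudocount of 0.1 gave medians of -1.0 as deposited and -0.13 after scaling, with 1125 genes lower and 214 higher in grain minus pod as deposited, and 622 lower and 637 higher after scaling, where the excess of lower genes was lost. Without a filter the medians were -0.56 and -0.042, and on the 6 grain libraries alone the median after scaling was -0.068. Without a minimum difference 1977 genes were higher and 3377 lower after scaling. Rescaling each library to the same sum, chosen after the data had been seen, gave a median of -0.77 and 6934 genes with a lower change in grain than in pod.

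Leaving out 1 grain library in turn gave 309 to 417 genes higher and 6101 to 6908 lower as deposited, and 850 to 1226 higher and 1488 to 2162 lower after scaling, with medians of -0.90 to -0.83 and -0.13 to -0.10. Over the 12 grain and pod libraries the grain minus pod counts ran from 208 to 388 higher and 1084 to 6442 lower as deposited, and from 527 to 964 higher and 592 to 1003 lower after scaling. Of the named genes 116 of 137 called as deposited and 98 of 118 called after scaling kept their call in all 6 fits without 1 grain library. Same-numbered libraries of the stages deviated together at r = 0.2, -0.0869 and 0.0103, not each best with its own number. Whether equal numbers mark paired samples is not in the labels, and so few libraries cannot settle it. A replicate block on the 9 grain libraries gave 404 higher and 7046 lower as deposited, and 1122 and 2130 after scaling.

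The libraries have no known depth, so low values cannot be given a counting error, and how reads of similar copies were assigned is not known. Whether libraries of a group are separate plants is not in the labels. The share of tissue types in a grain and the total RNA of a grain were not measured, so neither scale gives an amount per seed.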
